A study of Mus musculus with 2 samples.

Results

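The genes described here are 9 of the 55536 annotated genes, taken by symbol and Ensembl gene identifier: the activating Fc gamma receptors Fcgr1, Fcgr3 and Fcgr4, the inhibitory receptor Fcgr2b, the adaptors Fcer1g and Tyrobp, the receptors Trem2 and Trem1, and the kinase Syk. All 9 were found in every table. They were measured by total RNA sequencing after ribosomal RNA depletion in bone marrow derived macrophages of C57BL/6J mice, primary cells stimulated with Lipid A, a Toll-like receptor 4 ligand, at 100 ng/ml for 10 min. One field of the labels names the fraction nucleoplasmic and others call it nucleus or nuclear. The 2 libraries form 1 group, so levels at 1 time are given and no response to Lipid A can be read from them; untreated cells were not analysed here. The labels give separate biosamples under 1 donor identifier, with no sex or age collected, and do not say whether they came from separate animals, so the spread between libraries may be technical. Replicate 1 was made from 1 µg of RNA and replicate 2 from 500 ng.

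Fc gamma receptors bind the constant part of IgG and let macrophages take up coated particles. The activating receptors pair with Fcer1g, the common gamma chain, whose cytoplasmic tail holds an immunoreceptor tyrosine-based activation motif (ITAM). Tyrobp, also called DAP12, carries the same kind of motif and serves Trem1 and Trem2, receptors with short tails of their own. Src family kinases phosphorylate the tyrosines of an ITAM, and Syk docks there and passes the signal on. Fcgr2b works alone and carries an inhibitory motif (ITIM), which recruits the lipid phosphatase encoded by Inpp5d.

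The motifs that set these roles apart are shown as coding sequence, since they are what separates an activating from an inhibitory chain. The stretches were read from the GENCODE M21 transcripts and the capitals mark the codons of the defining tyrosine and hydrophobic residues. The first 2 follow the ITAM pattern (tyrosine, 2 further residues, leucine or isoleucine, and the same again) and the third is the ITIM.
Fcer1g-201, chr1:171229889-171230072, minus strand, codons 65 to 79 of 86: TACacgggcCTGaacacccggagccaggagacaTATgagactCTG
Tyrobp-201, chr7:30415670-30417382, plus strand, codons 92 to 106 of 114: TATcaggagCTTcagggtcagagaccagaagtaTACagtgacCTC
Fcgr2b-202, chr1:170961071-170961088, minus strand, codons 270 to 275 of 293: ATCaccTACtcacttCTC
Both ITAM stretches run over 45 bases with 7 codons between the paired parts, and both cross an intron in the genome. They lie close to the end of the coding sequence, 7 codons from it in Fcer1g-201 and 8 in Tyrobp-201. The ITIM pattern is short and loose, and it also matched Fcgr1, Fcgr4 and both adaptors, so only the known site of Fcgr2b is shown. No ITAM match was found in the coding transcripts of Fcgr1, Fcgr3, Fcgr4, Fcgr2b, Trem1, Trem2 or Syk, nor in Fcer1g-203. The coding sequence of Fcer1g-203 is 276 bases long, against 258 in Fcer1g-201.

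Replicate 1 held 19153465 expected counts on annotated genes and replicate 2 held 11622346. Levels are in TPM, counts divided by effective length and scaled to a fixed total per library, and are given per library or as mean ± SD (n = 2). Protein-coding genes held 31.0% of TPM in replicate 1 and 29.5% in replicate 2, the rest being mostly short structural RNAs, so a level among protein-coding genes alone is about 3 times as high: for Fcgr2b it was 978 ± 51.7. All 10 macrophage markers examined stood at 1 TPM or more in both libraries, with a summed level of 5893 TPM in replicate 1 and 3567 in replicate 2. Of 10 T and NK cell markers and 8 mast cell and basophil markers none reached 1 TPM in both. One of 8 B cell markers did (Ighm, 4.67 and 4.47 TPM), and so did 2 of 10 neutrophil markers (Csf3r, 55.5 and 78.0, and S100a8, 1.53 and 1.75). In bulk RNA, fewer cells of a type and less RNA per cell cannot be told apart.

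Of the 9 genes, 8 stood at 1 TPM or more in both libraries, against 46.0% of 22028 protein-coding genes. Fcgr2b had the highest level and Trem1 the lowest. The order by mean TPM was Fcgr2b, Trem2, Fcer1g, Syk, Tyrobp, Fcgr3, Fcgr1, Fcgr4 and Trem1. The ranges of the libraries overlapped between Fcgr2b and Trem2, between Fcer1g and Syk, between Syk and Tyrobp, and between Tyrobp and Fcgr3. Ranges taken over both libraries thus did not separate these neighbours. Within each library Fcgr2b was above Trem2 and Tyrobp above Fcgr3. Fcer1g and Syk changed order between the libraries, and so did Syk and Tyrobp. Trem2 was above Fcer1g, Fcgr3 above Fcgr1, Fcgr1 above Fcgr4 and Fcgr4 above Trem1 in every pairing of libraries. Among protein-coding genes the ranks ran from 61 for Fcgr2b and 69 for Trem2 to 1663 for Fcgr1 and 3429 for Fcgr4.

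**Figure D1:**
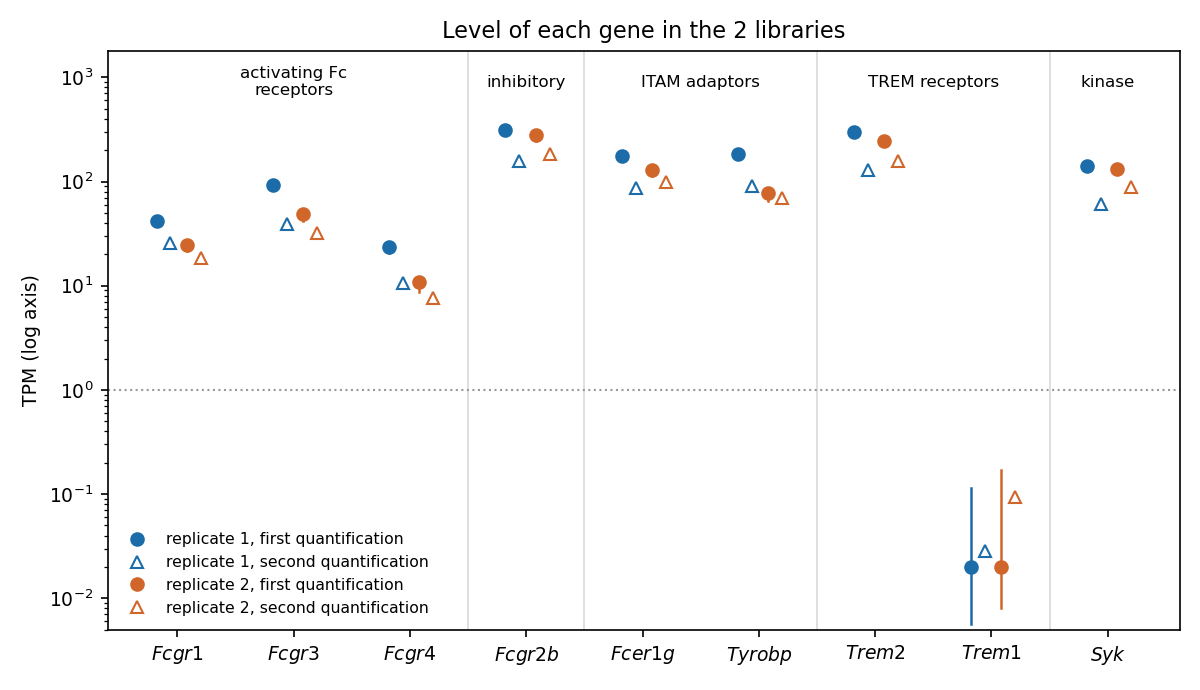
TPM of each of the 9 genes (vertical log axis) in replicate 1 (blue) and replicate 2 (orange), by the first quantification (filled circles, with vertical lines for the deposited intervals) and by the second (open triangles). The dotted line is 1 TPM; 8 genes lie above 10 TPM in both libraries by the first quantification and Trem1 lies near 0.02.

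The activating receptors were led by Fcgr3, the low-affinity receptor for IgG complexes, at 92.6 TPM in replicate 1 and 48.7 in replicate 2 (70.6 ± 31.0). Fcgr1, the high-affinity receptor on chromosome 3, stood at 41.4 and 24.9 TPM (33.1 ± 11.7). Fcgr4, the receptor of intermediate affinity for some IgG subclasses, stood at 23.4 and 10.9 TPM (17.2 ± 8.83). All 3 were higher in replicate 1 than in replicate 2, yet the order Fcgr3, Fcgr1, Fcgr4 was the same in both libraries. Behind these levels were 2296 and 789 expected counts for Fcgr3, 2094 and 854 for Fcgr1, and 542 and 165 for Fcgr4.

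The inhibitory receptor Fcgr2b stood at 314 TPM in replicate 1 and 278 in replicate 2 (296 ± 25.5), on 11723 and 6579 expected counts. Its lower library was above the higher library of each activating receptor. The 3 activating receptors summed to 157 TPM in replicate 1 and 84.5 in replicate 2, so that the ratio of activating to inhibitory receptor RNA was 0.501 and 0.304 (0.403 ± 0.139). The sum of 3 genes was thus below Fcgr2b alone in both libraries. Much of the Fcgr2b signal lay on transcripts that the annotation does not call protein-coding, described below. With protein-coding transcripts alone the ratio was 0.802 and 0.649 (mean 0.726), under 1 in both libraries. The activating receptors then held 126 and 70.6 TPM against 157 and 109 for Fcgr2b. The second quantification, a separate set of deposited transcript levels from the same libraries, gave 0.399 over all transcripts and 0.688 over protein-coding ones. Both protein-coding ratios leave out the retained intron model of Fcgr3, at 28.86 and 13.95 TPM by the first quantification. Only 8.24% of that model lies outside the coding transcripts of Fcgr3, so few reads can tell it from mRNA. Whether these ratios stay under 1 with that model counted among the activating receptors was not tested.

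Fcgr2b and Fcgr3 share sequence, which bears on how reads can be divided between them. Their coding sequences (Fcgr2b-202 and Fcgr3-201) aligned over 788 bases, of which 80.6% were identical. The other pairs of Fc gamma receptors were between 58.6% and 63.1% identical, and none of these pairs had an unbroken identical run of more than 14 aligned bases. The longest run shared by Fcgr2b and Fcgr3, printed once because it is the same in both, was 129 bases long. It lies at coding bases 278 to 406 of Fcgr2b-202 (chr1:170966674-170968081) and 263 to 391 of Fcgr3-201 (chr1:171054167-171057792), minus strand, across an intron in each.
Shared run: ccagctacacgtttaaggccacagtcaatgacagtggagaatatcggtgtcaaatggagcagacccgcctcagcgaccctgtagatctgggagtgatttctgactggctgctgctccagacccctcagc
Of all windows of 50 bases in Fcgr3-201, 12.8% also occurred in an Fcgr2b transcript, and of those in Fcgr2b-202, 11.7% occurred in Fcgr3. With windows of 100 bases the shares were 3.53% and 3.23%. The longer Fcgr2b-201 shared 12.5% of its 50-base windows with 145 genes in all, and 6.79% of its 100-base windows with 14, so its reads can be shared beyond Fcgr3. The transcripts of Fcgr1, Fcgr4, Fcer1g, Tyrobp, Trem2, Trem1 and Syk shared no window of 50 bases with another gene. Expected counts of Fcgr2b and Fcgr3 were not whole numbers while those of the other members were, so the levels of these 2 genes carry a division of reads that the others do not. The read length is not given in the sources used here.

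Fcer1g, the gamma chain, stood at 175 TPM in replicate 1 and 130 in replicate 2 (153 ± 31.8). Its level was 1.11 and 1.54 times the summed activating Fc gamma receptors (1.33 ± 0.303), so adaptor RNA was above receptor RNA in both libraries. Tyrobp stood at 186 TPM in replicate 1 and 77.2 in replicate 2 (131 ± 76.7), the widest spread of the 8 detected genes. It was above Fcer1g in replicate 1 and below it in replicate 2, so no order of the adaptors held. Against the sum of Trem1 and Trem2, Tyrobp was at 0.620 in replicate 1 and 0.317 in replicate 2 (0.468 ± 0.214), below 1 in both libraries. On protein-coding transcripts of the second quantification alone this ratio was 1.05 in replicate 1 and 0.630 in replicate 2. Both adaptor RNAs are short, 674 bases for Fcer1g-201 and 564 for Tyrobp-201, so their TPM rest on fewer reads than those of longer genes at a like level: 1727 and 861 expected counts for Fcer1g, 1489 and 418 for Tyrobp.

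Trem2, a receptor for lipids and lipoproteins on macrophages and microglia, stood at 300 TPM in replicate 1 and 244 in replicate 2 (272 ± 39.5). Trem1, a receptor that amplifies inflammatory responses in neutrophils and monocytes, had 1 expected count in each library, 0.02 TPM. For 1 count the exact 95% Poisson interval reaches 0.0896 TPM in replicate 1 and 0.139 in replicate 2, covering counting error only. From counts and effective lengths, Trem2 was 18632 times Trem1 in replicate 1 (counting interval 3344 to 735998). In replicate 2 it was 9798 times (1758 to 387045). These ratios rest on 1 count of Trem1 and differ from ratios of the printed TPM, which are rounded. The second quantification placed Trem1 at 0.0282 and 0.0945 TPM and Trem2 at 130 and 158, a smaller ratio in both libraries. The genes lie 99476 bases apart on chromosome 17, Trem1 at 48232768 to 48246924 and Trem2 at 48346401 to 48354147, both on the plus strand. Between and beside them, Trem3 and Treml4 were at 0 counts in both libraries, while Treml2 was at 3.12 and 3.28 TPM and Treml1 at 6.98 and 8.06.

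Syk stood at 140 TPM in replicate 1 and 132 in replicate 2 (136 ± 5.85), the smallest spread relative to its level among the detected members. It lies on the plus strand of chromosome 13, 52583173 to 52648792. Its paralog Zap70, the kinase of T and NK cells, did not reach 1 TPM in both libraries. Syk was thus below Fcgr2b and Trem2 in both libraries, above the 3 activating receptors in both, and within the spread of the adaptors.

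The split of each gene over its annotated transcripts differed between the members. Fcgr4 has 1 annotated transcript, and Fcgr1, Fcer1g and Tyrobp had at least 94.5% of their TPM on protein-coding transcripts in each library. Fcgr3, Fcgr2b, Trem2 and Syk had between 26.6% and 41.3% on retained intron transcripts, which keep sequence that is spliced out of the mRNA. In RNA of a nuclear fraction, reads of RNA not yet spliced can fall on these models too. The 2 sources cannot be told apart here. The share was 35.3% and 39.5% for Fcgr2b (mean 37.4%), 41.3% and 36.4% for Syk (38.9 ± 3.51), 31.2% and 28.6% for Fcgr3 (29.9 ± 1.81) and 26.6% and 29.6% for Trem2 (28.1 ± 2.16). It was 2.19% on average for Fcer1g, and the remaining members have no retained intron model. Thus 4 of the 5 members with such a model had a share of at least 10% in both libraries, against 86.7% of 3777 protein-coding genes that have one and average 10 TPM or more. The median gene of that background had a share of 33.3% (quartiles 19.5% and 48.4%), so the 4 shares lay within the quartiles, and Fcer1g lay at percentile 1.69.

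Taking the 9 genes together, retained intron transcripts held 22.2% of their TPM in replicate 1 and 26.0% in replicate 2 (24.1 ± 2.69). In expected counts the share was 34.5%. Trem2 alone moved it up, from 28.1% of TPM to 67.5% of counts, while the share was lower in counts than in TPM for the other 4 genes with a model. The retained intron model of Trem2, of 4784 bases, had 79.7 and 72.3 TPM and 8162 and 4776 of the gene's 12377 and 6925 expected counts. Of its bases, 78.1% lie outside every coding transcript of Trem2. By contrast only 8.24% of the retained intron model of Fcgr3 lies outside the coding transcripts of that gene, so few reads can tell that model from mRNA.

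**Figure D2:**
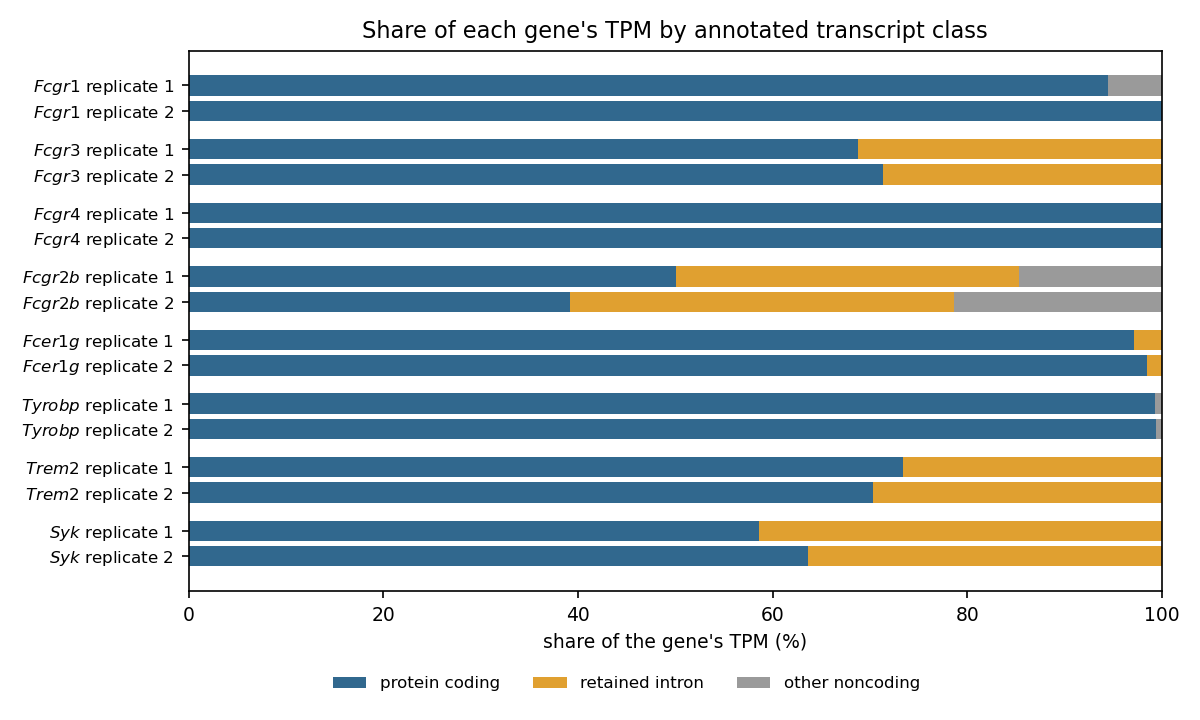
Share of each gene's TPM (horizontal axis, percent) on protein-coding, retained intron and other noncoding transcripts, 1 bar per library; Trem1, with 1 count per library, is not drawn. Fcgr1, Fcgr4, Fcer1g and Tyrobp are nearly all protein-coding, whereas Fcgr2b had 50.1% and 39.2% of its TPM on protein-coding transcripts.

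Counting protein-coding transcripts alone changed the order at the top. Trem2 then led at 220 TPM in replicate 1 and 171 in replicate 2, above Fcgr2b at 157 and 109 in every pairing of libraries. Fcer1g stood at 170 and 129, Tyrobp at 184 and 76.8, and Syk at 82.3 and 84.0. The ranges of Fcer1g and Tyrobp therefore overlapped with that of Fcgr2b on this measure. Within each library Fcer1g was above Fcgr2b, whereas Tyrobp was above Fcgr2b in replicate 1 and below it in replicate 2.

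Fcgr2b had 5 transcripts with at least 5% of its TPM. The coding transcripts were Fcgr2b-201, at 70.4 TPM in replicate 1 and 72.0 in replicate 2, and Fcgr2b-202, at 86.8 and 36.7. Fcgr2b-202 was the higher in replicate 1 and the lower in replicate 2. The second quantification showed the same split, with 31.8 and 50.2 TPM for Fcgr2b-201 and 33.7 and 19.7 for Fcgr2b-202. They differ by an in-frame coding exon of 141 bases (chr1:170963325-170963465, minus strand), which is in Fcgr2b-201 and not in Fcgr2b-202. Textbook accounts give the longer receptor, B1, to B cells and the shorter, B2, to myeloid cells, which is why the exon is shown.
Exon of Fcgr2b-201: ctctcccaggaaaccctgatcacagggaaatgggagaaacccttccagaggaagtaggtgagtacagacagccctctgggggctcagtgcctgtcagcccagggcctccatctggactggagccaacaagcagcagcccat
The transcript models also differ in length, 3544 bases against 1462, so reads outside this exon enter the split. No count of the exon itself was analysed here. The noncoding transcripts were Fcgr2b-205 (71.6 and 59.96 TPM) and Fcgr2b-207 (39.0 and 49.7), both retained intron models, and Fcgr2b-206, a processed transcript (46.0 and 59.3).

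Syk RNA was mostly of the long form. Syk-203 stood at 57.3 and 52.8 TPM and Syk-201 at 21.1 and 28.4, both with a coding sequence of 1887 bases. Syk-202, at 3.96 and 2.83 TPM, lacks an in-frame exon of 69 bases in the linker between the SH2 and kinase domains (chr13:52624708-52624776, plus strand). The form without this exon is known as Syk-S or SykB.
Exon of Syk-203 and Syk-201: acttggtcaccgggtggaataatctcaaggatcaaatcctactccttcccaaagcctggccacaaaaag
Syk-202 held 2.82% and 2.14% of the gene's TPM by the first quantification and 5.28% and 4.77% by the second. Its coding sequence also ends earlier, without a later coding exon of 70 bases, so its level is not a count of the 69-base exon alone. The retained intron models Syk-204 and Syk-205 stood at 42.1 and 33.2 TPM and at 15.9 and 14.8.

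Among the remaining members, Trem2-201 (162 and 128 TPM) was above Trem2-202 (57.8 and 43.4), whose coding sequence is longer, 747 against 681 bases. Tyrobp-202, at 112 and 54.6 TPM, was above Tyrobp-201, at 72.7 and 22.2, in both libraries. The ITAM stretch of Tyrobp printed above is in both. Tyrobp-202 is annotated without a start codon and begins upstream, so the pair differ at the 5′ end. Fcer1g-201, the transcript with the ITAM, stood at 166 and 125 TPM against 4.15 and 3.86 for Fcer1g-203; the second quantification gave Fcer1g-203 a larger share, 13.3% and 15.9% of the gene. Fcgr1-202, a nonsense-mediated decay model, had 5.54% of Fcgr1 in replicate 1 and 0% in replicate 2, and 35.1% and 7.21% by the second quantification, so its level depended on the quantification.

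The libraries were compared with expected counts scaled by TMM, an edgeR method that sets most genes equal between libraries, over 11526 genes averaging 50 counts or more. A comparison of 1 library with 1 other has no test. Tyrobp was more than 2-fold apart, 2.12-fold higher in replicate 1 (log2 difference 1.09), and it was the only one of the 8 members compared; 1.93% of all genes were that far apart in either direction. This call depended on the levels used: with TMM-scaled counts of the second quantification the log2 difference was 0.75 for Tyrobp and 1.01 for Fcgr4, and by log2(TPM + 1) both passed 2-fold. Fcgr4 lay just inside that limit at a log2 difference of 0.97, followed by Fcgr3 at 0.80 and Fcgr1 at 0.55. Tyrobp, Fcgr4 and Fcgr3 were more than 1.5-fold higher in replicate 1, 3 of 8 members, against 5.86% of all genes. The 5th and 95th percentiles of all genes were -0.46 and 0.62. Fcgr1 lay between them, as did Fcer1g (0.26), Trem2 (0.09), Fcgr2b (0.09) and Syk (-0.09).

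The activating receptors and Tyrobp thus differed more between libraries than Fcgr2b, Trem2 and Syk did. On this scale 7 of 8 members were higher in replicate 1, against 49.4% of all genes compared. With unscaled TPM 8 of 8 were, and by TPM of the second quantification 4 of 8. The share of all genes was not computed for these last counts, so they have no background. Of the 10 macrophage markers 9 were higher in replicate 1 on the same scale, with a median log2 difference of 0.55 over the list, and Mertk was lower (-0.30). The neutrophil markers summed to 61.1 TPM in replicate 1 and 82.4 in replicate 2, mostly through Csf3r, and the other 9 summed to 5.59 and 4.38. The part of these markers in the members' differences was not tested. Replicate 1 also had more RNA input and more counts, and input and library cannot be told apart.

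**Figure D3:**
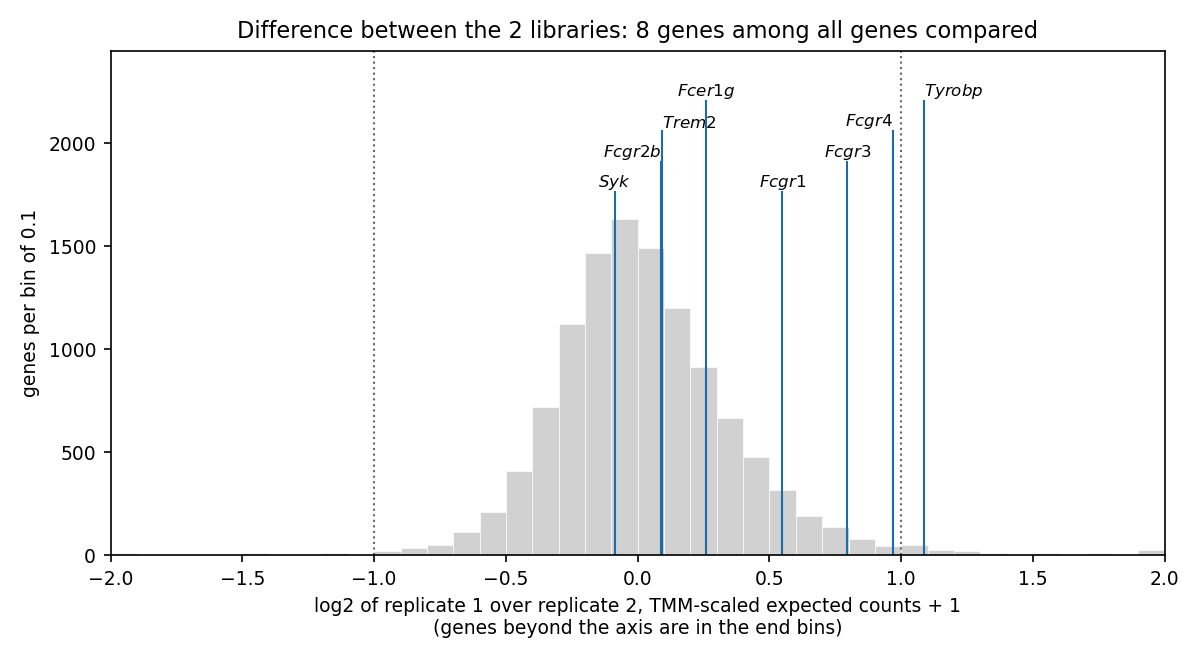
Number of genes (vertical axis) by log2 difference between replicate 1 and replicate 2 of TMM-scaled expected counts (horizontal axis, bins of 0.1) over 11526 genes, with the 8 detected members as labelled lines. Dotted lines mark a 2-fold difference; Tyrobp at 1.09 is past it and Fcgr4 at 0.97 is just inside.

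Coding and retained intron transcripts of 1 gene need not differ between libraries alike. For Fcgr2b the coding transcripts had a log2 difference of 0.53 while its retained intron transcripts had 0.01. For Trem2 the values were 0.36 and 0.14. For Fcgr3 both were high, 0.87 and 1.05, and for Syk they were -0.03 and 0.27. The gap between the classes was 0.04 in the median of 4677 genes, 0.52 in Fcgr2b, 0.22 in Trem2, -0.18 in Fcgr3, -0.30 in Syk and -0.99 in Fcer1g, so the members showed no common direction. The value of Fcer1g, at percentile 3.81 of those genes, rests on 15.8 and 4.18 expected counts of its retained intron model.

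The quantifications gave the members different levels and the same order by mean TPM, except that Tyrobp stood above Syk by the second. Averaged over libraries, the first was 1.43 times the second for the median gene, 1.73 times in replicate 1 and 1.22 times in replicate 2. None of the 8 members was more than 2-fold apart, against 6.04% of 5808 genes averaging 10 TPM or more. In replicate 1 alone (without replicate 2) 6 of 8 were, against 28.9% of genes, and in replicate 2 alone 0 of 8, against 4.08%. By the second quantification Fcgr2b stood at 157 and 184 TPM, Trem2 at 130 and 158, Fcer1g at 85.8 and 98.0, Syk at 60.9 and 87.9, and Tyrobp at 89.9 and 69.7. The activating receptors stood at 39.5 and 31.9 for Fcgr3, 25.5 and 18.6 for Fcgr1, and 10.6 and 7.56 for Fcgr4. Fcgr2b again exceeded each activating receptor in both libraries.

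The receptors' genomic neighbours bear on their counts because strand handling is not given in the sources used here. Fcgr2b, Fcgr4, Fcgr3 and Fcer1g lie within 275749 bases of chromosome 1. Gm38204 overlaps Fcgr2b on the opposite strand and had 1 expected count in each library, but 9.62 and 14.4 TPM by the second quantification, so the quantifications differed there. Gm26110, an snRNA gene, overlaps Fcgr4 on the same strand. It had 0 counts in both libraries by the first quantification and 10.3 and 11.8 TPM by the second. Fcgr4 itself stood at 10.6 and 7.56 TPM by the second. Hcst lies 126 bases from Tyrobp on the opposite strand and had 21 and 10 expected counts, far fewer than Tyrobp. The quantifications differed for Hcst too, with 4.43 and 3.09 TPM by the first and 10.1 and 7.29 by the second.

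Promoter sequence was examined because several Fc gamma receptor genes are known to be driven in myeloid cells by PU.1, the product of Spi1, which binds purine-rich sites around GAGGAA. Spi1 itself stood at 35.4 and 24.2 TPM. In the 250 bases before each start site in RefSeq (GRCm38.p6), the letters GAGGAA on either strand were found in 7 of 10 promoters, for 6 of the 8 members with an entry (all but Tyrobp). Of all 32851 promoters 23.3% hold them, a share per promoter and not per gene. The 2 Fcgr3 promoters overlap and hold the same site, which is counted for both. The letters were found in Fcgr1, Fcgr3, Fcgr4, Trem2, Trem1 and 1 of 2 Syk promoters, and not in Fcgr2b or Fcer1g. The last 60 bases before the start are shown for the 4 receptors that were detected and held a match there, read on the gene's strand, with the match in capitals as its reverse complement TTCCTC.
Fcgr1, chr3:96293970-96294029, minus strand: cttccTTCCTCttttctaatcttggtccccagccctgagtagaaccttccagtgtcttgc
Fcgr3, chr1:171059404-171059463, minus strand: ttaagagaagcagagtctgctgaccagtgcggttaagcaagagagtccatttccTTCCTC
Fcgr4, chr1:171018866-171018925, plus strand: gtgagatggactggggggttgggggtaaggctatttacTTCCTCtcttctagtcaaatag
Trem2, chr17:48346341-48346400, plus strand: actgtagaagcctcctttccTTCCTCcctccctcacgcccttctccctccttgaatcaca
The match began 55 bases before the start in Fcgr1, 6 in the Fcgr3 promoter shown, 22 in Fcgr4 and 40 in Trem2. For the other Fcgr3 promoter the same site began 15 bases before the start. In Trem1, which was near 0, the match began 162 bases before the start and on the other strand. A match is only the presence of these exact letters within the 250 bases. Other forms of a PU.1 site and other start sites were not searched, so no match does not mean no site. Whether a match bears on the level of a member was not tested.

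The remaining genes of the pathway were taken from lists. Of 12 other Fc receptors, 3 stood at 1 TPM or more in both libraries: Fcgrt, the neonatal Fc receptor that recycles IgG, at 65.3 and 36.5 TPM; Trim21, a cytosolic antibody receptor, at 16.2 and 21.4; and Fcrl1 at 3.48 and 2.80. Fcer1a and Ms4a2, the alpha and beta chains of the mast cell IgE receptor that also uses Fcer1g, had 0 counts in both libraries. Of 7 other adaptors, only Hcst, the DAP10 adaptor, was detected, at 4.43 and 3.09 TPM. Cd247, Cd79b, Cd3g and Cd3e, chains of lymphocyte antigen receptors, were all below 1 TPM. Fcer1g and Tyrobp were thus the only ITAM adaptors of the lists detected in both libraries by the first quantification. By the second, Cd3d, a chain of the T cell receptor complex, also reached 1 TPM in both (2.53 and 10.1), against 0 and 0.10 by the first. Among the other Fc receptors Fcer2a did so too, at 3.52 and 4.34 TPM, against 0.48 and 0.37 by the first.

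Of 20 other genes listed as TREM family members or adaptor-coupled receptors, 12 were detected. The highest were Itgb2, the common beta chain of leukocyte integrins, at 156 and 104 TPM, Clec4d at 111 and 73.3, and Clec7a, the beta-glucan receptor Dectin-1, at 83.1 and 61.7. Trem2 was above each of them in both libraries. Treml4 and Trem3 were at 0.

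Of 15 Src and Tec family and related kinases, 7 were detected, led by Lyn at 71.2 and 59.98 TPM, Tec at 51.1 and 52.5, and Csk, which restrains Src kinases, at 49.3 and 36.8. Blk, a kinase of B cells, had 0 counts in both libraries. Syk was above Lyn in both libraries. Of 27 downstream adaptors, lipases and exchange factors, 26 were detected. The highest were Prkcd, a protein kinase C, at 167 and 138 TPM, Dock2 at 132 and 145, and Cdc42 at 110 and 121. The lowest were Sos1 at 4.96 and 5.56 and Lat, the T cell scaffold, at 0.77 and 0.85. Of 18 brakes on the pathway, 16 were detected. Sirpa, the receptor for CD47, stood at 690 and 539 TPM, Ptprc, the phosphatase CD45, at 269 and 259, and Pirb, an ITIM receptor, at 235 and 280. Sla2 and Ubash3a, known from lymphocytes, were the lowest at 1.09 and 0.63 and at 0.03 in both. In all, 49 of these 60 signalling genes were detected, and only 5 of them had a higher mean TPM than Syk. None of the 49 compared between libraries was more than 2-fold apart, a count near the 1.93% of all genes. Their median log2 difference was -0.01, and that of the 8 members was 0.40.

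**Figure D4:**
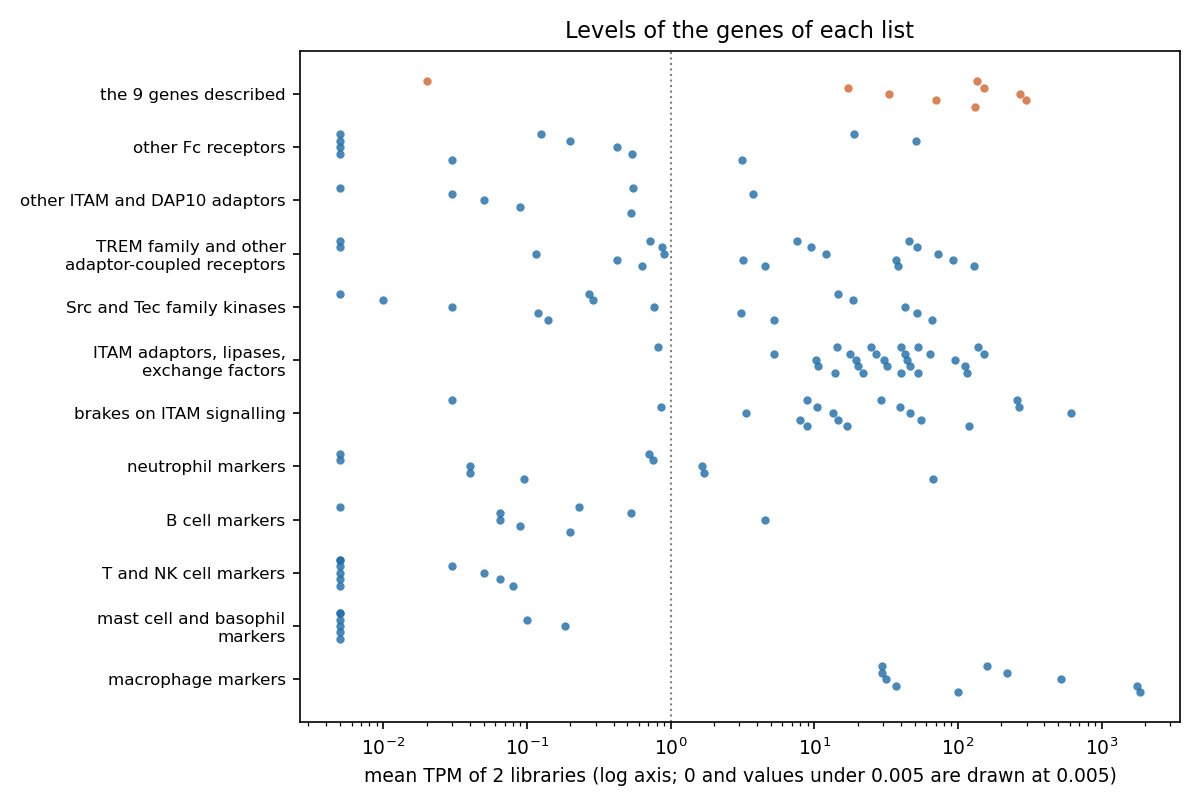
Mean TPM of the 2 libraries (horizontal log axis) for each gene of the lists, 1 point per gene, with the 9 genes described in orange. The dotted line is 1 TPM, and genes at 0 are drawn at 0.005; signalling genes and macrophage markers lie mostly above the line, and markers of lymphocytes and mast cells mostly below it.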

How the data were processed

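Per the labels, the libraries are ribosome-depleted total RNA of 1 group, and replicate numbers come from them. Per the file headers and the text deposited beside the files, gene and transcript levels used mm10 with GENCODE M21; programs and strand handling are not given in the sources used here. Column names are those of RSEM (gene and transcript tables) and kallisto (second quantification, summed per gene). The expected counts that the authors deposited need not be whole, so they were rounded for edgeR 4.0.16 and DESeq2 1.42.0 (R 4.3.3), which were used for scaling only and tested on simulated data. The TPM values deposited by the authors are relative to everything in a table. The deposited TPM interval bounds, a signal that is never negative, surround the posterior mean and may leave out the TPM. Entries naming no annotated gene (1.18% and 0.405% of counts) were left out. Counting intervals cover counting error alone, because PCR copies of 1 molecule cannot be recognised.

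Members and lists were chosen with earlier results of these data known. Named genes were all members, member transcripts with at least 5% of a gene's TPM, the 3 highest and 2 lowest of each list, and neighbours where reads may be shared; other genes, such as Zap70, Inpp5d and Treml1, are named for context. Some genes that this rule allows are not reported here. The retained intron minimum of 10% was chosen after values were seen. Detection was 1 TPM in both libraries; differences used a pseudocount of 1. Alternatives were posterior mean TPM, the second quantification, coding transcripts, other scalings, pseudocounts, filters and single libraries. Sequences are from GENCODE M21 transcripts and RefSeq promoters. Python 3.11.15, numpy 2.4.6, pandas 2.3.3 and scipy 1.17.1 were used.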

Additional observations from a re-analysis of the deposited data

How the results depend on the processing

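No paired analysis was possible because both libraries belong to 1 group. Of the alternatives to the ratios and counts that describe the members, 37 stayed within the spread between libraries or within 1.5 times the count. Another 9 moved. A single library always lies within 1 SD of the mean of 2, so leaving out 1 library could not move a ratio or the retained intron share. The ratio of activating to inhibitory receptor was 0.726 with protein-coding transcripts only and 0.688 with those of the second quantification. That last setting, chosen after seeing the data, gave 1.88 for Fcer1g over activating receptors and 0.842 for Tyrobp over TREM receptors. The latter was 1.05 in replicate 1 and 0.630 in replicate 2, so it was not below 1 in both libraries. Members more than 2-fold apart between libraries were 2 by TPM (4.82% of all genes), and 3 at a 1.5-fold limit (8.47%). Between the quantifications 7 members were past 1.5-fold (44.5% of all genes), and leaving out 1 library gave 0 to 6 members past 2-fold (4.08% and 28.9%). Centring on the median gene, also added after seeing the data, left 0 of 8. The retained intron share was 34.5% in expected counts. The difference of Syk turned from -0.09 to 0.087 on log2(TPM + 1). By the second quantification Tyrobp fell to 0.75 and Fcgr4 reached 1.01, so which gene passed 2-fold changed; the cause was not tested. Of 27 alternative levels 10 lay within 1 SD, and rescaling to protein-coding genes moved 9 levels, as its construction implies. Depth limits what can be said of Trem1, with 1 count a library.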
